A study of Mus musculus with 25 samples.

Results

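Hypothalamic gene expression was compared between male C57BL/6J mice weaned onto a hypercaloric diet (HCD) and males weaned onto regular chow (RD), with both maternal diets together in each group. All 12 library columns of males in the deposited count tables were used, 6 of HCD-weaned and 6 of RD-weaned offspring, of 24 library columns in the series. HCD is a diet with 52% fat and much sucrose (TD.04059.PWD). Every animal was wild type and was killed at 3 months of age. Dams in both groups had been given HCD or RD, starting 1 month ahead of mating and lasting through pregnancy and nursing, and the offspring kept their own diet from weaning on. The labels list 3 HCD-weaned males of HCD dams and 3 of RD dams, and 3 RD-weaned males of HCD dams and 4 of RD dams. The count columns carry running numbers that match no label, and the table of RD-weaned males has 6 columns for 7 labelled samples. Maternal diet is therefore unknown for every library, and a difference between groups is an average over an unknown mix of dams. All libraries of a postnatal diet stand in the same table, so the table and the diet cannot be told apart. The labels do not say whether the males of a group came from separate litters, and p-values measure only the spread between these samples.

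The hypothalamus sets food intake, energy use and hormone release. In its arcuate nucleus, neurons making AgRP and neuropeptide Y drive feeding, while neurons making POMC and CART restrain it, and both read leptin and insulin. Its magnocellular neurons make vasopressin and oxytocin for the posterior pituitary, and its lateral part makes orexin and melanin-concentrating hormone, which promote arousal and feeding. In rodents, diets rich in fat are known to evoke NF-kB signalling and a glial response there.

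No gene passed the test for postnatal diet. With 15220 genes tested by edgeR's quasi-likelihood test, 0 had a Benjamini-Hochberg adjusted p under 0.05 (0% higher and 0% lower), and the smallest adjusted p was 0.999. At an unadjusted p under 0.05 there were 299 genes, 1.96% of those tested, of which 172 (1.13%) had higher and 127 (0.834%) lower fitted expression in HCD-weaned males. DESeq2 also called 0 genes, with 512 (3.36%) at an unadjusted p under 0.05. The fitted log2 fold change, HCD-weaned over RD-weaned, was positive for 8741 genes and negative for 6479, with a median of 0.07 and quartiles of -0.18 and 0.33. Its median standard error was 0.396, and the 95% interval lay inside a change of 2-fold in either direction for 6156 genes, 40.4% of those tested. For the other genes the interval did not bound the change to 2-fold.

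The 6 HCD-weaned libraries were alike in depth, and the 6 RD-weaned libraries were not. Total counts ran from 23589065 to 34376378 in HCD-weaned males and from 5413575 to 30854922 in RD-weaned males. RD-weaned libraries 31, 32 and 33 stood apart from the rest. In them the ribosomal precursor Rn45s and Mir6236 took 0.698%, 0.878% and 0.689% of counts, against 0.00699% to 0.0961% in the HCD-weaned and 0.00306% to 0.0246% in the other RD-weaned libraries. Libraries 32 and 33 held 5413575 and 7296698 counts and detected 10587 and 11948 genes, where the other 10 detected 16921 to 18234. Among the genes they detected, 1.61% and 0.929% had 1 to 9 counts, against 9.9% to 14.4% elsewhere. Genes detected in all other libraries, such as Hes1 and Insr, were listed at 0 in library 32. In library 31, transthyretin (Ttr), the main transport protein made by the choroid plexus, was at 1.14 CPM (counts relative to the library total after TMM scaling), against 1760 to 6190 in HCD-weaned and 3440 to 8770 in the other RD-weaned libraries. The first principal component set library 32 and library 33 apart and held 57.5% of the variance, and the third, with 9.19%, set library 31 apart. Exact two-sided permutation tests of 6 against 6 libraries gave p = 0.1039 for total counts and p = 0.1537 for genes detected. The lists and most of the named genes are therefore also given for the other 9 libraries, a choice made after the data had been seen. With these 9, edgeR again called 0 of 15370 genes, with 329 (2.14%) at an unadjusted p under 0.05, 137 (0.891%) higher and 192 (1.25%) lower, and a smallest adjusted p of 0.842. The biological coefficient of variation was 0.306 with 9 libraries and 0.572 with 12. The 95% interval then lay inside 2-fold for 10350 genes (67.3%).

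**Figure D1:**
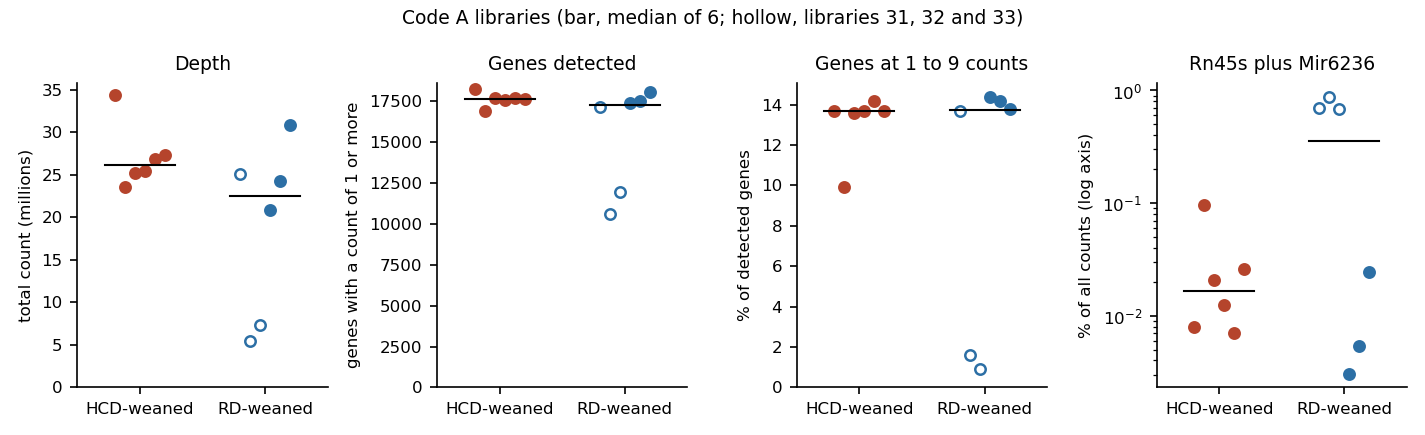
Depth, genes detected, share of detected genes with 1 to 9 counts, and share of counts from Rn45s and Mir6236 (log axis) in the 6 HCD-weaned and 6 RD-weaned male libraries, each point 1 library and each bar a median. The hollow points are libraries 31, 32 and 33, at 0.689% to 0.878% of counts for Rn45s and Mir6236, and 2 of them lie at 10587 and 11948 genes detected.

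Mir6236 is shown because its counts, with those of Rn45s, mark these 3 libraries. Its mature RNA, from RefSeq GRCm38.p6 at chr9:110281353-110281371 on the plus strand, is printed with the seed (bases 2 to 8) in capitals. Fragments of a poly(A) library counted under this symbol do not measure the mature RNA.
mmu-miR-6236: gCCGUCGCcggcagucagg
Mir6236 was lowest at 29, with a median of 77.2 and a highest value of 377 CPM, in HCD-weaned males, against 15.6, 867 and 5280 CPM in RD-weaned males. The 3 libraries named above held 1650 to 5280 CPM, and the groups overlapped. The log2 fold change was -3.77 (SE 1.21, unadjusted p = 0.00743 by edgeR) with 12 libraries and 1.42 (unadjusted p = 0.104) with 9. Of 8 tested RNAs without a poly(A) tail, 3 had a positive fold change with 12 libraries and 8 with 9, and the list's median was -2.89 and 1.22. Rmrp, the RNA of RNase MRP, had a log2 fold change of -4.7 with 12 libraries and 2.26 with 9, and Rpph1, the RNA of RNase P, -4.34 and 2.78.

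The peptide genes of the hypothalamus had log2 fold changes from -0.82 to 4.37. Of 30 listed feeding and neuroendocrine peptide genes, 27 had a mean count of 10 or more and were tested, 0 were called, 20 had a positive and 7 a negative fold change, and the median was 0.42, beside 0.07 over all genes. An unadjusted p under 0.05 was reached by 3 of the 27. With 9 libraries 25 of 27 were positive, the median was 0.57, beside 0.01 over all genes, and 6 had an unadjusted p under 0.05. A further fit of the 12 libraries removed a trend on gene length and GC content in each library. There 17 of 27 were positive and the median was 0.09, beside 0.08 over all genes.

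Avp and Oxt were both high in HCD-weaned libraries 26 and 25, and Cartpt was highest in library 15. The promoters of these 3 genes, those with the smallest p on the list, are shown. Each is the 250 bases before the RefSeq start site (GRCm38.p6), with the motif searched in capitals, on both strands. The Avp promoter (chr2:130582589-130582838, minus strand) held 1 E-box CACGTG, the sequence bound by CLOCK and BMAL1, and 6.02% of 32851 promoters of mouse genes hold it. The Oxt promoter (chr2:130575919-130576168, plus strand) held 5 matches to GGTCA, the core of nuclear hormone receptor elements, which 35.2% of promoters hold at least once. In the Cartpt promoter (chr13:99900684-99900933, minus strand) there was 1 cyclic AMP response element TGACGTCA, held by 1.55% of promoters. None of the motifs marked overlaps another, and a match is a description of letters only.
Avp: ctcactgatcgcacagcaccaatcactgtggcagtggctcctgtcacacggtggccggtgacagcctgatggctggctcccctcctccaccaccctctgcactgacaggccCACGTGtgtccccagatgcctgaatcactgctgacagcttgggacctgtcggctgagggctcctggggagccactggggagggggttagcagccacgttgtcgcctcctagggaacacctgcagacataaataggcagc
Oxt: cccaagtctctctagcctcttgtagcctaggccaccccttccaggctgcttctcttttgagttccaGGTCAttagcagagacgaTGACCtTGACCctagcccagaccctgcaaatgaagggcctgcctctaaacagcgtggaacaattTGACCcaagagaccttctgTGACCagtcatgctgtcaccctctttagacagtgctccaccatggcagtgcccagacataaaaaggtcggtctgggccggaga
Cartpt: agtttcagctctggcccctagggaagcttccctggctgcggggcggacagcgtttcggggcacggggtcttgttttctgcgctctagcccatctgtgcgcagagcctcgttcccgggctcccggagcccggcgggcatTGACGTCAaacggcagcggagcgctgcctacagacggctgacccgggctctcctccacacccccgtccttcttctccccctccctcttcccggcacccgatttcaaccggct

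Avp, which encodes vasopressin, was at 96.5, 3.41, 304, 6.44, 4.27 and 4.82 CPM in HCD-weaned libraries 26, 27, 25, 13, 14 and 15, against 0.0813, 9.82, 3.13, 3.16, 3.91 and 1.13 CPM in RD-weaned libraries 31, 32, 33, 19, 20 and 21. Libraries 26 and 25 were high, and the other 4 HCD-weaned libraries lay within the range of the RD-weaned ones. The log2 fold change was 4.37 (SE 1.28, 95% interval 1.65 to 7.1, unadjusted p = 0.00388 by edgeR), 2.74 without library 25 and 4.69 (unadjusted p = 0.0208) with 9 libraries. Oxt, which encodes oxytocin, was at 74.1, 1.23, 20.7, 1.76, 0.12 and 4.2 CPM in the HCD-weaned libraries in the same order, against 0.772, 0, 0, 4.2, 0.371 and 0.157 CPM in the RD-weaned libraries. The same libraries, 26 and 25, were high, and the groups overlapped. Its log2 fold change was 4.14 (SE 1.43, unadjusted p = 0.0113), 2.56 without library 26 and 3.48 (unadjusted p = 0.0723) with 9 libraries. Magnocellular neurons are gathered in small nuclei, and in bulk tissue fewer cells of a type and less RNA per cell cannot be told apart. Of the 12 listed transcription factors of hypothalamic neurons, Sim1, which specifies vasopressin and oxytocin neurons, reached 3.67 CPM at most in HCD-weaned and 1.14 CPM in RD-weaned libraries. The summed CPM of these factors was 63.3 and 57.1 in libraries 26 and 25 and 17.3 to 28.5 in the other HCD-weaned libraries. It was 56 and 49.4 in RD-weaned libraries 19 and 20, where Avp was at 3.16 and 3.91 CPM. The other RD-weaned libraries held 26.2 to 37.9 CPM. Six3 alone held 26 and 35.2 CPM of the sum in libraries 26 and 25, and 41.4 and 37.7 CPM in libraries 19 and 20. The part of these factors in the values of Avp and Oxt was not tested.

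Cartpt, which encodes the appetite-restraining peptide CART, was at 8.51, 30.8 and 189 CPM (lowest, median and highest) in HCD-weaned and at 5.19, 10.1 and 36.6 CPM in RD-weaned males. HCD-weaned libraries 15, 13 and 26, at 189, 109 and 48.2 CPM, were above every RD-weaned library, and the other 3 were not. The log2 fold change was 2.13 (SE 0.75, 95% interval 0.53 to 3.74, unadjusted p = 0.0126), 1.39 without library 15 and 3.04 (unadjusted p = 0.013) with 9 libraries. It was 1.31 after the trend on length and GC content was removed. Pomc, whose product yields the satiety peptide alpha-MSH, was at 1.73, 3.6 and 17.4 CPM in HCD-weaned and at 0, 2 and 6.89 CPM in RD-weaned males. The groups overlapped, and the fold change was 1.25 on the log2 scale (SE 0.87, unadjusted p = 0.171), or 1.39 (unadjusted p = 0.0703) with 9 libraries.

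Npy, the orexigenic partner of AgRP, was at 21.4, 48.5 and 92.3 CPM in HCD-weaned males and at 4.79, 42.4 and 51.7 CPM in RD-weaned males. Its ranges overlapped, with a log2 fold change of 0.43 (SE 0.46, 95% interval -0.55 to 1.42, unadjusted p = 0.362) with 12 libraries and 0.21 with 9. Agrp itself did not reach a mean count of 10 over the 12 libraries. It was at 0.0368, 0.548 and 0.983 CPM in HCD-weaned and at 0, 0.111 and 0.22 CPM in RD-weaned males. In 5 of 6 HCD-weaned libraries it was above every RD-weaned one, but the RD-weaned values were near the floor. Libraries 32 and 33 were at 0, where 3 counts equal 0.517 and 0.409 CPM, and library 19 was at 3 counts (0.142 CPM). Tested without libraries 31, 32 and 33, Agrp had a log2 fold change of 1.57 (SE 0.76, unadjusted p = 0.0634). Kiss1 and Nmu, which encode kisspeptin and neuromedin U, were likewise too low to test.

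Pmch and Hcrt, the lateral hypothalamic genes for melanin-concentrating hormone and orexin, ranged widely in both groups. Pmch was at 7.06, 117 and 300 CPM in HCD-weaned and at 0, 11.8 and 457 CPM in RD-weaned males. Hcrt was at 0.327, 6.08 and 43.2 CPM in HCD-weaned and at 0, 22.1 and 52 CPM in RD-weaned males. Neither set of groups separated, and the log2 fold changes were 0.14 (95% interval -2.44 to 2.73) for Pmch and -0.66 (-3.56 to 2.25) for Hcrt. With 9 libraries they were 0.9 for Pmch and -0.16 for Hcrt, and after the trend on length and GC content was removed -0.2 and -1.18. Such intervals leave changes of 4-fold and more in either direction within reach for both genes.

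**Figure D2:**
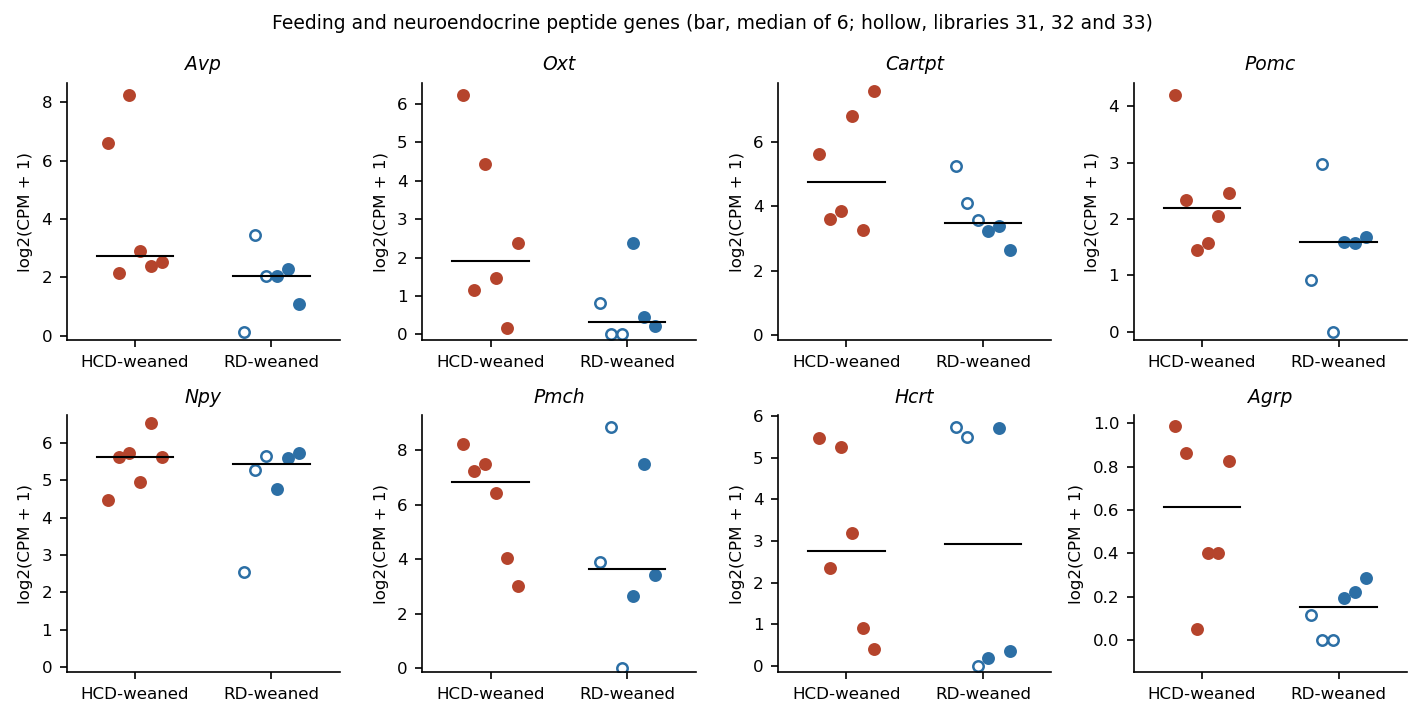
Expression, as log2(CPM + 1), of 8 peptide genes in the 6 HCD-weaned (left) and 6 RD-weaned (right) male libraries, each point 1 library, each bar a median, and libraries 31, 32 and 33 hollow. Avp reaches 304 and 96.5 CPM in 2 HCD-weaned libraries and at most 9.82 CPM in RD-weaned ones, and the groups overlap in all 8 panels.

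Among releasing hormones, thyrotropin-releasing hormone (Trh) had a log2 fold change of 0.95 (SE 0.54, unadjusted p = 0.1) with 12 libraries and 0.97 with 9. Corticotropin-releasing hormone (Crh) was at 1.36, 3.74 and 5.73 CPM in HCD-weaned and at 0, 1.55 and 7.58 CPM in RD-weaned males, with overlapping groups. Its log2 fold change was 0.66 (unadjusted p = 0.432) with 12 libraries and 1.28 (SE 0.51, unadjusted p = 0.0288) with 9. Growth hormone-releasing hormone (Ghrh) was at -0.75 with 12 libraries and at 1.4 (unadjusted p = 0.0423) with 9, and tyrosine hydroxylase (Th), the first enzyme of dopamine synthesis, was at 0.11 and 1.91 (unadjusted p = 0.0269). Neurotensin (Nts) gave 0.65 with 12 libraries and 1.02 (unadjusted p = 0.0422) with 9. Somatostatin (Sst), which was abundant in all 12 libraries, was at 125 to 342 CPM in HCD-weaned and 88.4 to 260 CPM in RD-weaned males, with a log2 fold change of 0.44 (SE 0.3, unadjusted p = 0.172).

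Receptors and hormone signalling genes lay closer to no difference. Of 30 tested, 0 were called and 0 had an unadjusted p under 0.05, 13 had a positive and 17 a negative fold change, and the median was -0.03 (-0.15 with 9 libraries, and 0.18 with 20 of 30 positive after the trend on length and GC content was removed). Lepr, the leptin receptor, was at 2.2, 3.06 and 4.46 CPM in HCD-weaned and at 0, 3.38 and 4.53 CPM in RD-weaned males. Insr, the insulin receptor, was at 18.9, 27.3 and 45.8 CPM in HCD-weaned and at 0, 37.4 and 56.4 CPM in RD-weaned males. Both overlapped, both had library 32 at 0, and the log2 fold changes were 0.3 (95% interval -1.56 to 2.16) for Lepr and -0.01 (-1.49 to 1.46) for Insr. With 9 libraries the fold changes were -0.4 (-1.02 to 0.23) for Lepr and -0.34 (-0.99 to 0.31) for Insr. Mc4r, the melanocortin receptor through which alpha-MSH restrains feeding, was at 3.16, 3.85 and 4.87 CPM in HCD-weaned and at 0, 2.21 and 10.1 CPM in RD-weaned males. RD-weaned libraries 33 and 32 held the highest and the lowest value, and the 6 HCD-weaned libraries lay between them. The log2 fold change was 0.3 (SE 0.76, unadjusted p = 0.696) with 12 libraries and 0.96 (SE 0.28, unadjusted p = 0.00577, adjusted p = 0.842 by edgeR) with 9. The 2 members with the smallest p were Trhr, the receptor of thyrotropin-releasing hormone (1.36, unadjusted p = 0.138, and 0.74 with 9 libraries), and Sh2b1, an adaptor of leptin and insulin signalling (-0.29, unadjusted p = 0.144, and -0.15 with 9 libraries).

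Inflammatory genes did not pass the test either. Of 36 listed NF-kB, cytokine and interferon genes, 28 were tested, 0 were called and 0 had an unadjusted p under 0.05, with 21 positive, 7 negative and a median log2 fold change of 0.31 (18 of 28 positive and 0.12 with 9 libraries). After the trend on length and GC content was removed, 19 of 28 were positive, with a median of 0.23. Tnf and Il1b, the classic pro-inflammatory cytokine genes, fell below the count limit. Tnf reached 0.0797 CPM at most in HCD-weaned and 0.124 CPM in RD-weaned males, and Il1b 0.818 and 0.314 CPM. Il6, Ccl2, Ccl3, Ccl4, Ccl5 and Cxcl10, which encode further cytokines and chemokines, were also too low to test with 12 libraries. With 9 libraries Ccl3 had a log2 fold change of -0.43 (unadjusted p = 0.563 by edgeR) and Cxcl10 of 0.55 (unadjusted p = 0.293). Nfkbia, the inhibitor that NF-kB itself induces, was at 25.1, 44.8 and 74.8 CPM in HCD-weaned and at 23, 35.8 and 84.6 CPM in RD-weaned males. The groups overlapped, and the log2 fold change was 0.23 (95% interval -0.51 to 0.96) with 12 libraries and -0.12 with 9. The smallest p-values belonged to Mif, macrophage migration inhibitory factor (0.78, SE 0.4, unadjusted p = 0.0719), and Lcn2, lipocalin 2 (1.84, SE 1.07, unadjusted p = 0.105). With 9 libraries they were 0.34 for Mif and 1.01 for Lcn2, and Mif was -0.07 after the trend on length and GC content was removed. A single HCD-weaned library, 14, held 4.79 CPM of Lcn2.

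MHC class I presentation genes, which load and display peptides to T cells, were positive for 10 of 12 members, with 0 called, 0 at an unadjusted p under 0.05 and a median of 0.35. With 9 libraries 12 of 12 were positive, with a median of 0.34. After the trend on length and GC content was removed, 9 of 12 were positive, with a median of 0.25. H2-K1, a class I heavy chain, was at 51.9, 65.3 and 82.2 CPM in HCD-weaned and at 30.3, 54.6 and 66.6 CPM in RD-weaned males, with a log2 fold change of 0.35 (SE 0.22, unadjusted p = 0.128), or 0.23 with 9 libraries. B2m, its light chain, gave 0.35 (SE 0.22, unadjusted p = 0.14) with 12 libraries, 0.21 with 9 and -0.52, the opposite direction, after the trend on length and GC content was removed. H2-K1 was 0.18 after that trend was removed. Each gene's groups overlapped. Microglial genes stood beside these with 11 of 14 members positive and a median of 0.27 (0.31 with 9 libraries). With the trend removed 10 of 14 were positive, with a median of 0.19. The complement gene C1qb was at 69.7, 129 and 156 CPM in HCD-weaned and 32.4, 95.7 and 118 CPM in RD-weaned males, with a log2 fold change of 0.54 (SE 0.28, unadjusted p = 0.0756), or 0.48 with 9 libraries. Aif1, the microglial gene for IBA1, had 0.07 (95% interval -1.28 to 1.42) with 12 libraries and 0.69 (-0.18 to 1.57) with 9. Gfap, the astrocyte filament gene, had 0.11 (-0.44 to 0.67) with 12 and 0.32 (-0.21 to 0.84) with 9.

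Genes of fuel use had 0 called members. Of 18 fatty acid use and ketone genes, 11 had a positive and 7 a negative fold change, and the median was 0.04 (-0.03 with 9 libraries). Plin2, which coats lipid droplets, gave 0.64 (SE 0.36, unadjusted p = 0.0931), or 0.39 with 9 libraries. Cholesterol and fatty acid synthesis genes were positive for 6 of 22 members, with 0 called and a median of -0.1 (-0.12 with 9 libraries), but for 15 of 22, with a median of 0.05, after the trend on length and GC content was removed. Fasn, fatty acid synthase, was at 141, 229 and 259 CPM in HCD-weaned and at 174, 249 and 557 CPM in RD-weaned males, overlapping, with a log2 fold change of -0.52 (SE 0.29, unadjusted p = 0.0978). It was -0.49 with 9 libraries and -0.03 after the trend was removed. Msmo1, a late enzyme of cholesterol synthesis, gave 0.27 (SE 0.24, unadjusted p = 0.273).

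Genes of respiration and of the ribosome had mostly positive fold changes without being called. Nuclear-encoded oxidative phosphorylation genes were positive for 27 of 28 members, with 0 called and a median of 0.31 (0.45 with 9 libraries). Cox5a, a subunit of cytochrome c oxidase, was at 219, 428 and 843 CPM in HCD-weaned and at 199, 298 and 349 CPM in RD-weaned males, with 4 of 6 HCD-weaned libraries above the RD-weaned range and a log2 fold change of 0.65 (SE 0.29, unadjusted p = 0.0445), or 0.46 (unadjusted p = 0.24) with 9 libraries. Sdhd, a subunit of succinate dehydrogenase, gave 0.54 (SE 0.34, unadjusted p = 0.138) with 12 libraries and 0.44 with 9. Cytosolic ribosomal protein genes were positive for 38 of 39 members, with 0 called and a median of 0.25 (0.66 with 9 libraries). Their summed level ran from 9190 to 29700 CPM in HCD-weaned and from 3080 to 29300 CPM in RD-weaned libraries, and the groups overlapped over most of their ranges. Rps29 and Rpl7 had the smallest p, at log2 fold changes of 0.68 (SE 0.48) and 0.54 (SE 0.4). After the trend on gene length and GC content was removed, 20 of 28 oxidative phosphorylation genes (median 0.07) and 27 of 39 ribosomal protein genes (median 0.11) were positive, and Cox5a was 0.14. That fit called 0 of 15126 genes, with 304 (2.01%) at an unadjusted p under 0.05. With the trend also setting each library's scale, which shifted the median of all genes by -0.29, 0 genes were called and 801 (5.3%) had an unadjusted p under 0.05, 37 (0.245%) higher and 764 (5.05%) lower.

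The other pathway lists had 0 called members each, and none of their members had an unadjusted p under 0.05 with 12 libraries. Chromatin and DNA methylation enzymes were positive for 7 of 26 members, with a median of -0.24 (-0.2 with 9 libraries), but for 15 of 26, with a median of 0.06, after the trend on length and GC content was removed. Tet2, which oxidises methylcytosine, was at 4.45, 8.87 and 19.4 CPM in HCD-weaned and at 11.4, 17.2 and 33.6 CPM in RD-weaned males, overlapping. Its log2 fold change was -0.82 (SE 0.41) with 12 libraries and -0.35 (SE 0.38) with 9. Kdm6b, a histone H3 lysine demethylase, gave -0.75 (SE 0.38) with 12 libraries and -0.3 (SE 0.35) with 9. In both genes RD-weaned libraries 31 and 32 held the highest values, 21.7 and 33.6 CPM for Tet2 and 43.6 and 30.5 CPM for Kdm6b. Heat shock and unfolded protein response genes were positive for 15 of 21 (median 0.16, and 0.13 with 9 libraries), led by the stress-induced transcription factor genes Atf3 (1.46, SE 0.77) and Atf4 (0.4, SE 0.24), which were 0.88 and 0.38 with 9 libraries.

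The medians of the remaining 5 lists turned sign between the fits. Immediate early genes, which report recent neuronal firing, were positive for 8 of 19 (median -0.06) with 12 libraries and for 13 of 19 (median 0.11) with 9. In the 12 libraries Nr4a2 was at -0.72 (SE 0.35) and Ier2 at 1.16 (SE 0.67), and in the 9 at -0.49 and 0.76. Glucocorticoid-responsive genes were positive for 10 of 18 (median 0.05) with 12 libraries and for 7 of 18 (median -0.14) with 9. Mt1, metallothionein 1, was at 0.58 (SE 0.37) with 12 libraries and 0.43 with 9, and Angptl4, an inhibitor of lipoprotein lipase, at 0.94 (SE 0.61) and 0.79 (unadjusted p = 0.0273). Of 9 tested renin-angiotensin genes, 5 were positive (median 0.13) with 12 libraries and 4 (median -0.08) with 9. The angiotensin receptor Agtr2 was at 1.34 (SE 0.79) with 12 libraries and 0.77 with 9, and the converting enzyme Ace at -0.38 (SE 0.29) and -0.62 (unadjusted p = 0.0477). RD-weaned libraries 19, 20 and 21, those among the 9, held 70.4, 82.7 and 35 CPM of Ace. HCD-weaned libraries held 30.7 to 57.9 CPM. Clock genes were positive for 7 of 17 (median -0.06) with 12 libraries and for 2 of 17 (median -0.16) with 9, but for 11 of 17 (median 0.08) after the trend on length and GC content was removed. Rorb was at -0.4 (SE 0.3) with 12 libraries and -0.66 (unadjusted p = 0.0152) with 9, and Per1 at -0.27 (SE 0.24) and -0.15. RD-weaned libraries 19, 20 and 21 held 57.6, 47.8 and 34.8 CPM of Rorb, and HCD-weaned libraries 17.5 to 36.8 CPM. Synapse and fast transmission genes were positive for 9 of 25 (median -0.04) with 12 libraries and for 4 of 25 (median -0.25) with 9, but for 15 of 25 (median 0.06) after the trend was removed. The syntaxin gene Stx1a was at 0.33 (SE 0.3) with 12 libraries and 0.25 with 9.

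**Figure D3:**
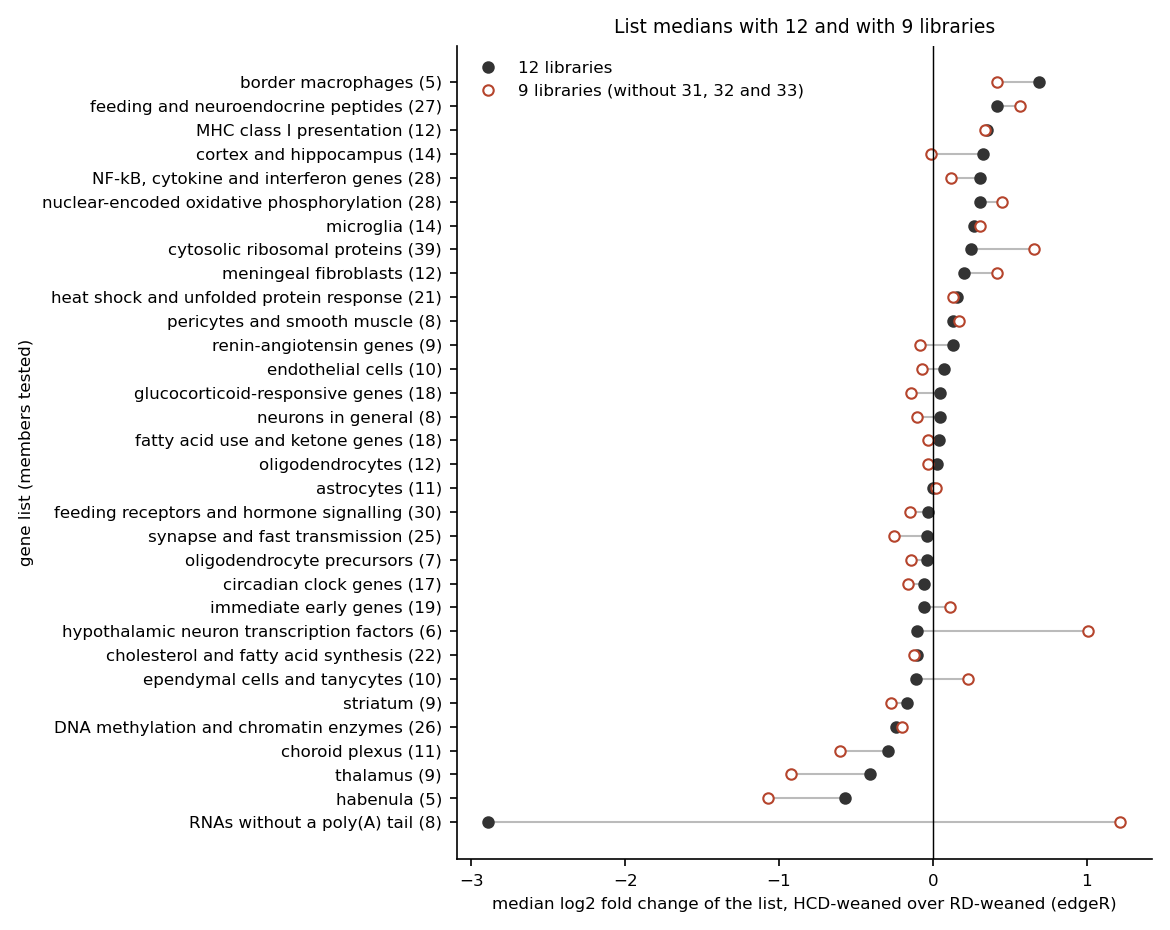
Median log2 fold change, HCD-weaned over RD-weaned (edgeR), of each gene list with 5 or more tested members, with 12 libraries (filled) and with 9 (open, without libraries 31, 32 and 33). RNAs without a poly(A) tail lie at -2.89 and 1.22, and most other lists lie within 0.5 of 0 in both fits.

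Marker genes were read to check the tissue. Transcription factors of hypothalamic neurons were low: 6 of 12 were tested, 2 of them positive (median -0.1, and 1.01 with 9 libraries), and none of the 12 was at 0 in all libraries. The 2 positive ones, Fezf1 and Sim1, were at 0 in 4 libraries each. They were highest in HCD-weaned libraries 26 (3.53 and 3.67 CPM) and 25 (1.69 and 1.91 CPM). A fit that weights libraries by their spread gave both a negative log2 fold change (-1.69 and -0.75), so their direction is not settled. Nkx2-1, which patterns the ventral hypothalamus, was at 0.92, 1.89 and 7.28 CPM in HCD-weaned and at 1.6, 3.3 and 7.23 CPM in RD-weaned males. Thalamic genes were positive for 1 of 9 members (median -0.41) with 12 libraries and for 0 of 9 (median -0.92, 5 with an unadjusted p under 0.05) with 9. Their summed level was 501 to 1020 CPM in HCD-weaned libraries and 355 to 770 CPM in 4 RD-weaned libraries, while RD-weaned libraries 19 and 20 held 1830 and 1670 CPM. Libraries 19, 20 and 21 were the RD-weaned libraries of the fit with 9. Rorb and Ace were also higher in libraries 19 and 20 than in library 21. What part this has in their fold changes was not tested. The kinase gene Prkcd was at 791 and 746 CPM in libraries 19 and 20. It was at 193 to 341 CPM in HCD-weaned and 93.9 to 174 CPM in the other RD-weaned libraries. Synpo2, an actin-binding protein gene on the same list, was at 7.22, 19.7 and 29.7 CPM in HCD-weaned and at 14.9, 43.4 and 82 CPM in RD-weaned males. These ranges overlapped, libraries 19 and 20 were again the highest, and the log2 fold change was -1.29 (SE 0.48, unadjusted p = 0.0166), or -1.62 with 9 libraries. Habenula genes, from the tissue above the thalamus, were positive for 0 of 5 members (median -0.57, and -1.07 with 9 libraries), with sums of 148 and 129 CPM in the same libraries and 143 CPM in HCD-weaned library 13, against 0 to 51.5 CPM in the other 9.

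Forebrain and ventricular markers also varied by library. Cortex and hippocampus genes were positive for 11 of 14 (median 0.33, and -0.01 with 9 libraries), with sums of 1360 to 4600 CPM in HCD-weaned and 829 to 4240 CPM in RD-weaned libraries. Striatal genes were positive for 3 of 9 (median -0.17) with 12 libraries and 0 of 9 (median -0.27) with 9, and 2500 CPM in HCD-weaned library 25 and 2130 CPM in RD-weaned library 33 were the highest sums. Choroid plexus genes were positive for 1 of 11 (median -0.29) with 12 libraries and 0 of 11 (median -0.6, 4 with an unadjusted p under 0.05) with 9, and their sum was 44.3 CPM in RD-weaned library 31. Of 9 pituitary genes 2 were tested, both positive (median 3.5, and 2.98 with 9 libraries). Growth hormone (Gh) was at 4.36 CPM in HCD-weaned library 26, 0.439 CPM in library 14 and at most 0.0412 CPM in the other 10. It was at 0 in 8 of the 12 libraries, and its log2 fold change of 5.87 rests mostly on library 26. The pituitary median is therefore not a measure of the groups. Library 26 was also the highest in Pomc, at 17.4 CPM, and in Oxt. What part differences in dissection have in the expression values was not tested.

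Lists of astrocytes, oligodendrocytes and their precursors, ependymal cells, vessels and neurons had medians within 0.13 of 0 with 12 libraries, and those of border macrophages and meningeal fibroblasts lay higher. Astrocyte genes were positive for 5 of 11 (median 0, and 0.02 with 9 libraries), with sums of 6260 to 8230 CPM in HCD-weaned and 5770 to 8580 CPM in RD-weaned libraries. Oligodendrocyte genes were positive for 7 of 12 (median 0.03, and -0.03 with 9 libraries), and genes of their precursors for 2 of 7 (median -0.04, and -0.14 with 9). Ependymal cell and tanycyte genes were positive for 3 of 10 (median -0.11) with 12 libraries and for 8 of 10 (median 0.23) with 9. Endothelial genes were positive for 7 of 10 (median 0.07, and -0.07 with 9 libraries) and pericyte and smooth muscle genes for 4 of 8 (median 0.13, and 0.17 with 9). General neuronal genes were positive for 5 of 8 (median 0.05, and -0.1 with 9 libraries). The axonal neurofilament gene Nefm was at -0.62 (SE 0.36) with 12 libraries and -0.64 (unadjusted p = 0.0415) with 9, and the ubiquitin hydrolase gene Uchl1 at 0.58 (SE 0.32) and 0.35. RD-weaned libraries 19, 20 and 21 held 443, 424 and 177 CPM of Nefm, and HCD-weaned libraries 175 to 301 CPM. Border macrophage genes were positive for 3 of 5, with a median of 0.69 with 12 libraries and 0.42 with 9, and of -0.11 to 1.05 when 1 library was left out. Their sums were low, at 3.99 to 11.6 CPM in HCD-weaned and 2.55 to 28.2 CPM in RD-weaned libraries. Meningeal fibroblast genes were positive for 7 of 12 (median 0.2) with 12 libraries and for 10 of 12 (median 0.42) with 9. The transporter gene Slc47a1 had the smallest p of the meningeal genes, at 0.24, 1.35 and 2.14 CPM in HCD-weaned and 0, 0.153 and 0.911 CPM in RD-weaned males. In 5 of 6 HCD-weaned libraries it exceeded the RD-weaned range, but most RD-weaned values were near the floor. Libraries 32 and 33 were at 0, where 3 counts equal 0.517 and 0.409 CPM, and libraries 19 and 20 were at 0.142 and 0.165 CPM. The log2 fold change of Slc47a1 was 2.17 (SE 0.83, unadjusted p = 0.0192 by edgeR), or 1.65 (unadjusted p = 0.0428) with 9 libraries. Of 5 blood genes only Alas2 was tested (0.19, and 0.43 with 9 libraries), and 4 were at 0 in all 12 libraries. The Y-linked gene Ddx3y was at 10.3 CPM or more in every library and Xist, the transcript of the inactive X, at 0.2 CPM or less, and the labels give all as male. Sex-linked genes were positive for 3 of 4 tested members (median 0.26, and -0.18 with 9 libraries).

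**Figure D4:**
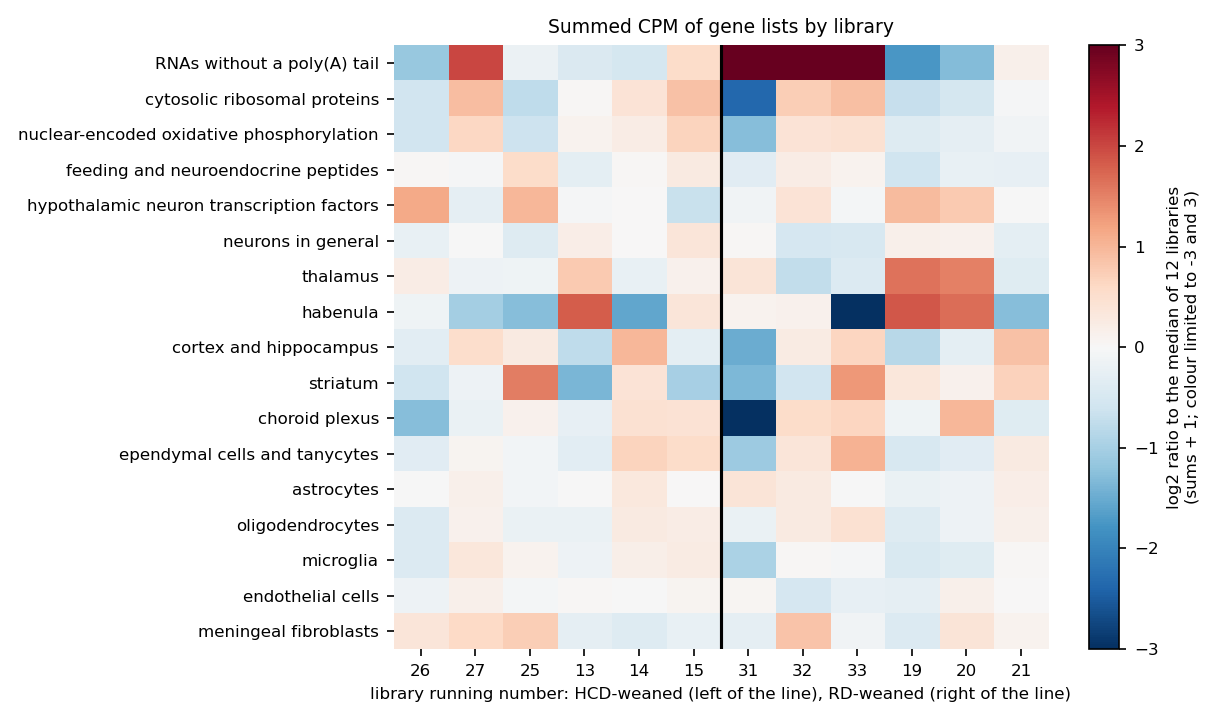
Summed CPM of 17 gene lists in each male library, as the log2 ratio to the median of the 12 libraries (HCD-weaned left of the line, RD-weaned right of it). RD-weaned libraries 31, 32 and 33 are dark in RNAs without a poly(A) tail, at 7160, 8900 and 7360 CPM, and libraries 19 and 20 in thalamic genes, at 1830 and 1670 CPM.

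In 10 genes the 2 groups did not overlap in CPM, 8 higher in HCD-weaned males (0.0526% of genes tested) and 2 lower (0.0131%). These were chosen after their values were seen and none was called. Scgn, which encodes the calcium sensor secretagogin, was at 1.48, 1.94 and 2.13 CPM in HCD-weaned and at 0, 0.573 and 1.04 CPM in RD-weaned males. Every HCD-weaned library was above every RD-weaned library, and the log2 fold change was 1.84 (SE 0.73, unadjusted p = 0.0235, adjusted p = 0.999 by edgeR), or 1.19 (SE 0.29, unadjusted p = 0.00172) with 9 libraries. Hes1, a transcriptional repressor of the Notch pathway, was at 9.48, 11.8 and 20.2 CPM in HCD-weaned and at 0, 8.2 and 9.26 CPM in RD-weaned males. Its groups did not overlap, with a log2 fold change of 0.85 (SE 0.65, unadjusted p = 0.211), or 0.57 (unadjusted p = 0.0377) with 9 libraries. Rpgrip1, Tubb6, Parp10, Gm10037, 9330199G10Rik and 1810030O07Rik were the other 6 on the higher side, and all but the last were at 0 in at least 1 RD-weaned library. On the lower side stood Nod1, an innate sensor of bacterial peptidoglycan, at 7.75, 9.21 and 10.5 CPM in HCD-weaned and 10.6, 12.4 and 23.3 CPM in RD-weaned males (log2 fold change -0.73, unadjusted p = 0.0459). Libraries 32 and 33 were at 22.2 and 23.3 CPM, and with 9 libraries the log2 fold change was -0.27 (unadjusted p = 0.14). Thsd1, a thrombospondin-repeat protein gene, was at 4.04, 4.66 and 4.91 CPM in HCD-weaned and 4.94, 8.96 and 17.6 CPM in RD-weaned males (-1.11, unadjusted p = 0.0218). Libraries 31, 32 and 33 held 11.5, 17.6 and 14 CPM and the other RD-weaned libraries 4.94 to 6.38 CPM, and with 9 libraries the log2 fold change was -0.29 (unadjusted p = 0.144). The nearest libraries of the 2 groups were at 4.91 and 4.94 CPM. With 9 libraries, 56 genes (0.364%) on the higher and 47 (0.306%) on the lower side did not overlap.

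Only 1 gene was called in any of the fits of the 2 male groups, and only by DESeq2 in the 9 libraries (0.00651% of 15370 genes, in the higher direction), where 475 genes (3.09%) had an unadjusted p under 0.05. Psmc3ip, which encodes a cofactor of meiotic recombination, was at 14.1, 23.8, 12.7, 17.2, 5.27 and 25.6 CPM in HCD-weaned libraries 26, 27, 25, 13, 14 and 15, against 0.853, 22, 3.54, 3.21, 3.58 and 4.4 CPM in RD-weaned libraries 31, 32, 33, 19, 20 and 21. Library 32 lay among the HCD-weaned values and the other 5 RD-weaned libraries lay below all of them. Its log2 fold change was 1.41 (SE 0.66, unadjusted p = 0.0498, adjusted p = 0.999 by edgeR) with 12 libraries. With 9 it was 2.13 by DESeq2 (adjusted p = 0.00339) and 2.12 by edgeR (SE 0.44, adjusted p = 0.842). Nnat, the imprinted neuronatin gene, was at 518, 690 and 1100 CPM in HCD-weaned and at 312, 408 and 671 CPM in RD-weaned males. The groups overlapped through libraries 31 and 32, at 621 and 671 CPM, and the log2 fold change was 0.63 (SE 0.26, unadjusted p = 0.0288) with 12 and 1.11 (SE 0.25, unadjusted p = 0.00084, adjusted p = 0.842 by edgeR) with 9 libraries. DESeq2 gave Nnat 1.12 in the 9 libraries, with an adjusted p of 0.0523, just over the threshold.

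The test that weights libraries by their spread gave another distribution of p-values. With limma-voom and quality weights, 0 genes had an adjusted p under 0.05 and the smallest was 0.0669, but 4722 genes (31%) had an unadjusted p under 0.05 and 2902 an adjusted p under 0.1 (1670 higher and 1232 lower). The weights were 6.12 and 7.29 for RD-weaned libraries 19 and 20, those with high thalamic sums, and 0.0596 to 0.332 for libraries 31, 32 and 33. HCD-weaned libraries had weights of 0.82 to 2.93. With 9 libraries 4490 genes (29.2%) had an unadjusted p under 0.05, and the smallest adjusted p by limma was 0.105. The smallest p belonged to Nnmt, nicotinamide N-methyltransferase (log2 fold change 2.32), Nnat (1.05) and Fxyd6, a regulator of the sodium pump (1.0), each with an adjusted p of 0.0669 by limma. Thalamic Synpo2 (-1.93) and Prkcd (-1.44) had the same adjusted p. Fitted by edgeR, the same genes had log2 fold changes of 2.39 for Nnmt, 0.63 for Nnat, 0.38 for Fxyd6, -1.29 for Synpo2 and -0.54 for Prkcd with 12 libraries, and with 9 libraries 1.78, 1.11, 0.92, -1.62 and -1.27 in the same order. Nnmt was low, at 0.478, 1.16 and 2.16 CPM (lowest, median and highest) in HCD-weaned and at 0, 0.177 and 0.691 CPM in RD-weaned males. Its RD-weaned values were mostly near the floor, with libraries 32 and 33 at 0.

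**Figure D5:**
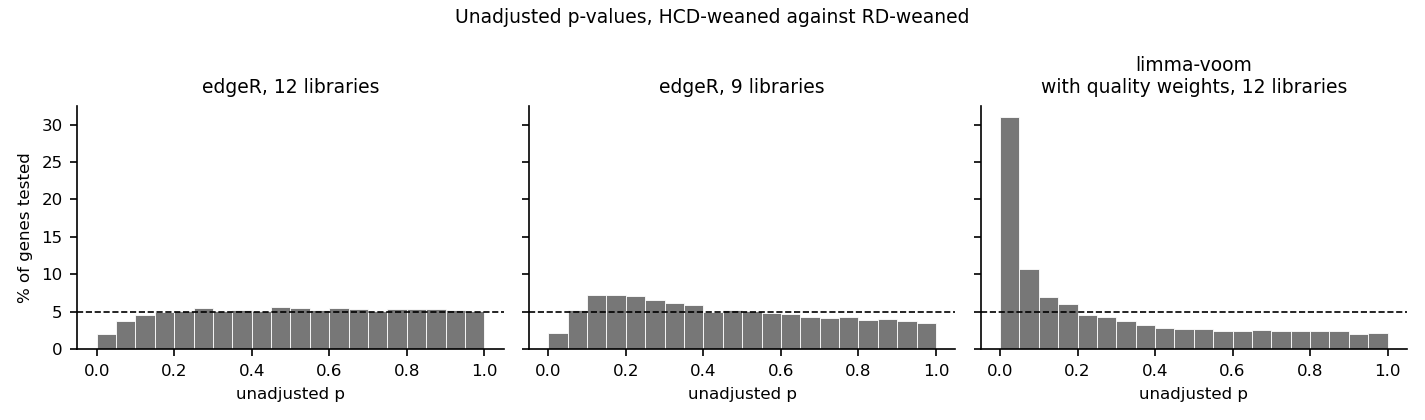
Share of tested genes in each 0.05-wide bin of the unadjusted p-value for HCD-weaned against RD-weaned males, by edgeR with 12 and with 9 libraries and by limma-voom with quality weights, with a dashed line at an even spread. The lowest bin holds 1.96%, 2.14% and 31% of genes.

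The response of males was set against that of their female counterparts, 6 HCD-weaned and 6 RD-weaned, by the interaction over 24 libraries. Of 15308 genes, 0 differed at an adjusted p under 0.05 by edgeR (0%), with 337 (2.2%) at an unadjusted p under 0.05 and 551 (3.6%) by DESeq2, which also called 0. Without the 5 libraries of both sexes with over 0.5% of counts from Rn45s and Mir6236, edgeR called 0 genes, with 759 (4.92%) at an unadjusted p under 0.05. Avp had a log2 fold change of 4.4 in males and 1 in females, a difference of 3.4 (SE 1.94, 95% interval -0.59 to 7.38). Oxt had 4.07 in males and -0.63 in females, a difference of 4.7 (SE 2.2, unadjusted p = 0.0425, adjusted p = 1 by edgeR). For Pomc the values were 1.26 in males and -1.25 in females (unadjusted p = 0.0411). The peptide list had a median of 0.41 in males and -0.37 in females, with 2 of 27 members at an unadjusted p under 0.05 for the difference. Nefm had -0.63 in males and 0.64 in females, a difference of -1.26 (SE 0.42, unadjusted p = 0.00526, adjusted p = 1 by edgeR). No gene is therefore shown to respond to the postnatal diet in males alone.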

How the data were processed

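Poly(A) RNA of hypothalamus was sequenced with a stranded mRNA kit, per the labels' protocols. The values used are the counts per gene that the authors deposited, 24421 genes in 4 tables. The submitters' processing notes name DESeq and the build mm10. No aligner, counter or gene annotation is given in the sources used here. No library columns are identical, and 8 further deposited files of results and transformed values were not used.

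The 12 male libraries were normalised together by TMM, and genes with a mean count of 10 or more were tested with the quasi-likelihood test of edgeR 4.0.16 (R 4.3.3), HCD-weaned over RD-weaned, with Benjamini-Hochberg adjustment over all genes kept and a threshold of 0.05. Standard errors are the fold change over the root of F. The test was also run on simulated counts, and its outcome there is not reported here. DESeq2 1.42.0 and limma 3.58.1 (voom with quality weights) were alternatives, as were other size factors, filters, a length and GC offset (loess span 0.3) and leaving out each library. CPM are on the TMM scale, and 3 counts equal 0.0797 to 0.517 CPM.

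The comparison and the 35 gene lists (16 of pathways, 19 of markers; 546 symbols, 542 in the files, 504 tested, 0 called, 12 or 2.38% at an unadjusted p under 0.05) were chosen with earlier results of these data known. Named genes were, by rule, the 10 called genes with the largest change in each direction with a mean CPM of 5 or more (0 qualified), the 2 smallest p-values of each list, and 16 fixed feeding and inflammation genes. Some genes selected by the rule are not reported here. Others are named for their place in a list or after their values were seen: genes whose groups do not overlap, the gene DESeq2 called, genes of smallest p by limma, members with an unadjusted p under 0.05 in 9 libraries, and markers.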

Additional observations from a re-analysis of the deposited data

Results flagged for a closer look

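In groups of 6 libraries, the highest or lowest value was taken as standing apart when its gap to the nearest library took up more of the range than Dixon's 95% critical value allows (genes on the log2(CPM + 1) scale). Of 220 groups looked at, 28 (12.7%) did so, where chance gives about 1 in 20 for independent, normally distributed values. Because the groups share libraries and include genes chosen after their values were seen, these rates cannot be compared. No difference between males and females met the threshold.

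Among HCD-weaned males, library 26 had the highest total count (34376378) and the highest Gh (4.36 CPM), Pomc (17.4 CPM) and Rpgrip1 (2.92 CPM). Library 27 had the lowest share of detected genes with 1 to 9 counts (9.9%), the highest share of counts from Rn45s and Mir6236 (0.0961%) and the highest 9330199G10Rik (6.45 CPM). Library 14 was highest in Lcn2 (4.79 CPM) and lowest in Agtr2 (0.399 CPM), library 15 was lowest in Rorb (17.5 CPM) and Syt7 (132 CPM), and library 13 was highest in Prkcd (341 CPM).

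Among RD-weaned males, library 31 was lowest in Ttr (1.14 CPM), Npy (4.79 CPM), Sdhd (50.7 CPM), Rps29 (59.6 CPM) and Aspa (10.6 CPM). Library 32 was lowest in Ier2 (0 CPM), Insr (0 CPM), Hes1 (0 CPM), Rorb (14.5 CPM) and Plin2 (3.79 CPM), and highest in F13a1 (23.3 CPM). Library 33 was lowest in Angptl4 (0.136 CPM) and highest in Syndig1l (214 CPM). Library 19 was highest in Oxt (4.2 CPM), library 20 in Gh (0.0412 CPM, under 3 counts) and library 21 in Nnmt (0.691 CPM).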

How the results depend on the processing

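The count of called genes was 0 for males under all 22 alternatives with 12 or 11 libraries and with edgeR or limma-voom in 9 libraries, and 1 with DESeq2 in 9 libraries, where Psmc3ip was called. Leaving out each of 12 libraries in turn gave 0 called genes every time, and 95 to 611 at an unadjusted p under 0.05, the lowest without HCD-weaned library 15 and the highest without RD-weaned library 21. For the difference between males and females the count was 0 in each alternative, with 206 to 714 at an unadjusted p under 0.05 when 1 of 24 libraries was left out and 759 (4.92%) without the 5 libraries with over 0.5% of counts from Rn45s and Mir6236. The length and GC offset left 304 genes (2.01% of 15126) at an unadjusted p under 0.05. When the trend also set the scale of each library, an alternative added after seeing the data, 801 passed. Of 2625 refitted values of 106 named genes, 103 differed in sign from the value reported, in 43 genes, and of 874 list medians 135 did, in 31 of 35 lists. The cause was not tested. No paired analysis was possible because the columns carry no replicate numbers. Depth limits libraries 32 and 33 most, where 3 counts equal 0.517 and 0.409 CPM.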
